A study of Mus musculus with 8 samples.

Results

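Arf1 to Arf6 are the 6 ADP-ribosylation factors of the mouse genome, and their transcripts were followed here in platelets of TNFdARE and littermate control mice. The genes were taken from the table by symbol, 6 of 43548 entries. Arf5 drew attention to the family because its value in every TNFdARE mouse lay above its value in every control mouse. Arf5 was thus chosen by its own FPKM values in these mice, and the values of Arf5 are given as a description with no test. The other 5 genes were taken because they belong to the same family.

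TNFdARE mice lack AU-rich elements of the Tnf transcript and overproduce TNF-α. They model chronic TNF-α-driven inflammation. The line had been backcrossed to C57BL/6J. The controls were littermates without that deletion, and their library names carry B6. The sources used here describe no treatment of the mice in either group. The mice were 8 to 12 weeks old, with 4 per genotype and, by their labels, 2 females and 2 males in each. Other parts of the labels speak of 3 mice per group and of male mice of 5.2 months whose humeri were taken, and the count of 4 follows the listed samples. Platelets were washed, and their RNA was sequenced as 150 bp reads. The question behind the comparison was how the platelet transcriptome differs in mice that live with excess TNF-α.

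Arf proteins are small GTPases that switch membranes on for traffic. Guanine nucleotide exchange factors (GEFs) load them with GTP, which lets a fatty-acid-bearing helix insert into the membrane, and GTPase-activating proteins (GAPs) end the signal. Bound to GTP, they recruit vesicle coats and adaptors, and they activate lipid enzymes such as phospholipase D and phosphatidylinositol 4-phosphate 5-kinase. Class I (Arf1, Arf2 and Arf3) and class II (Arf4 and Arf5) work mainly at the Golgi and the compartments next to it. Arf6, the class III member, works at the plasma membrane and on endosomes. In platelets Arf6 is known for its part in integrin trafficking and spreading. Platelets have no nucleus, and their RNA is largely inherited from megakaryocytes.

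The members lie on 5 chromosomes of the mouse genome (GRCm38). Arf5 (ENSMUSG00000020440) lies at chr6:28423560-28426602 on the plus strand, with 6 exons in a main transcript of 1116 bases. Arf4 (ENSMUSG00000021877) lies at chr14:26638074-26665084 on the plus strand. Arf1 (ENSMUSG00000048076) lies at chr11:59211412-59228270 on the minus strand, and Arf2 (ENSMUSG00000062421) at chr11:103966739-103985337 on the plus strand of the same chromosome. Arf3 (ENSMUSG00000051853) lies at chr15:98736634-98763214 on the minus strand. Arf6 (ENSMUSG00000044147) lies at chr12:69372150-69373783 on the plus strand. Their coding sequences are close in length, from 525 bases in Arf6 to 543 bases in the class I genes.

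Whether a sequenced fragment can be told to come from Arf5 and not from a relative depends on how far the coding sequences differ. The stretch that encodes the phosphate-binding loop, which grips the nucleotide and is conserved across small GTPases, is shown first to set a close match against a divergent one. Capitals mark the bases that differ from Arf5, and each line gives 24 bases of the GENCODE M21 transcript, read 5′ to 3′, at coding positions 70 to 93 (58 to 81 in Arf6).
Arf5: ggcttggatgcggctggcaagact
Arf4: ggAttggatgcTgctggcaagacG
Arf2: ggcttAgatgcAgctggcaaAacG
Arf1: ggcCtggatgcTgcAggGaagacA
Arf3: ggcCtggatgcTgcCggGaagacC
Arf6: ggcCtggaCgcAgcCggcaagacA

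Even in this loop, Arf4 differed from Arf5 at 3 bases, Arf2 at 4, and Arf1, Arf3 and Arf6 at 5 each. The first 30 coding bases, which encode the start of the helix that inserts into membranes, are shown because the classes part there. Capitals again mark bases that differ from Arf5.
Arf5: atgggcctcacggtgtccgcgctcttttcg
Arf4: atgggcctcacCAtCtccTcTctcttCtcg
Arf1: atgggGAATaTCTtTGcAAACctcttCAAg
Arf3: atgggcAATaTCTtTGGGAACctTCtGAAg
Arf2: atgggGAATGTCTtTGAAAAgctGtttAAA
Arf6: atgggGAAGGTgCtAtccAAgAtcttCGGg

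In this stretch Arf4, the other class II gene, differed from Arf5 at 6 of 30 bases, whereas the remaining members differed at 14 to 18. Over the whole coding sequence, Arf5 was 78.7% identical to Arf4, 75.2% to Arf3, 73.0% to Arf1, 71.5% to Arf2 and 68.2% to Arf6. The closest pair in the family was Arf1 and Arf3, at 83.6%. The longest run of identical bases in any pair was 39, between Arf1 and Arf6, which is shorter than a 150 bp read. Transcripts of 2 other genes matched a member over at least 150 bases at 95% identity, Gcc1 to Arf5 (316 bases, 99.7%) and Pde12 to Arf4 (402 bases, 100%), each on the opposite strand of the same locus.

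Arf5 does share bases with a gene on the other strand. It lies wholly inside Gcc1 (ENSMUSG00000029708, chr6:28416091-28428390, minus strand), which encodes a golgin of the trans-Golgi network. Of the 1907 exonic bases of Arf5, 313 are exonic in Gcc1 too. Gcc1 was listed at 0 in all 8 mice. Arf4 shares 527 of 3603 exonic bases with Pde12 and 110 with its antisense gene Arf4os, and Arf6 shares 209 of 1534 with Gm9887, in each case on opposite strands. Arf4os and Gm9887 were listed at 0 in all 8 mice, and Pde12 stayed at or below 0.408 FPKM. The sources used here do not say whether the libraries kept strand, so reads from these overlaps cannot be assigned with certainty.

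The values are read as FPKM, in which fragments are divided by transcript length and library size, so that levels of different genes can be set side by side. Read depth is unknown. The libraries were sparse and uneven, with 1479 to 2742 genes above 0 in control mice and 818 to 4917 in TNFdARE mice, and only 409 genes above 0 in all 8. A single entry, AY036118, took 33.7% to 67.7% of the summed FPKM. Hprt and Tnf itself were listed at 0 in all 8 mice, Ppia in 6 and Gapdh in 5, whereas Actb ranged from 51.1 to 97.3 FPKM. A listed 0 can thus be a failed estimate. Of 15 platelet and megakaryocyte markers, all were above 0 in 6 mice, 13 in TNFdARE mouse 1 and 14 in TNFdARE mouse 4, with summed values of 1238 to 1735 FPKM in control mice and 1171 to 1315 FPKM in TNFdARE mice. In such bulk RNA, fewer cells of a type and less RNA per cell cannot be told apart.

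Arf5, a class II Arf of the Golgi and early secretory pathway, was listed at 0, 1.61, 4.35 and 4.78 FPKM in control mice 1 to 4 and at 27.9, 9.71, 5.09 and 12.3 FPKM in TNFdARE mice 1 to 4. The group means were 2.69 ± 2.27 and 13.7 ± 9.90 FPKM (SD, n = 4 each). The gap between the groups was narrow at its edge, with control mouse 4 at 4.78 FPKM just outside the rule and TNFdARE mouse 3 at 5.09 FPKM just inside. The spread inside each group was wider than this gap. On the log2(FPKM + 1) scale the difference between group means was 2.07. Separation in this direction was seen in 13 of the 1534 genes with a mean of at least 1 FPKM over the 8 mice, or 0.847%, and nothing is read from it for Arf5 because it was picked that way.

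**Figure D1:**
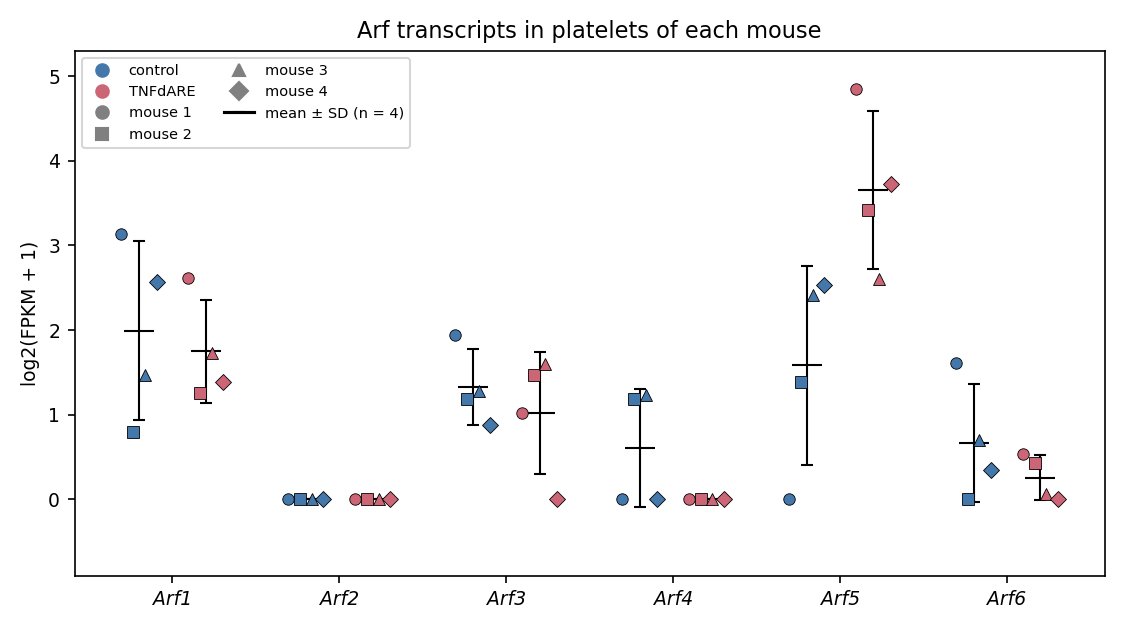
Level of each Arf transcript on a log2(FPKM + 1) axis, with a point for each mouse (control blue, TNFdARE red, marker shape for the mouse number) and a bar for the mean ± SD of 4 mice. Arf5 is the highest member in TNFdARE mice, from 5.09 to 27.9 FPKM, while Arf1, Arf3 and Arf6 overlap between genotypes and Arf2 sits at 0 throughout.

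The separation of Arf5 depended on the scaling of the libraries. After median-of-ratios scaling, control mouse 4 stood at 4.64 and TNFdARE mouse 3 at 4.59, so that the groups overlapped. They stayed apart after quantile normalization, with a highest control value of 4.32 and a lowest TNFdARE value of 5.55. After rescaling each library without AY036118 the edge values were 5.295 and 5.33. A rank scale gave overlap as well. Among the 409 genes above 0 in every library, Arf5 exceeded 0, 7.09, 22.2 and 25.4% in control mice 1 to 4, against 69.7, 44.01, 25.2 and 54.5% in TNFdARE mice 1 to 4. In TNFdARE mouse 3 Arf5 thus ranked as it did in control mouse 4, above 103 and 104 of the 409 genes, and in the other TNFdARE mice it ranked higher.

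Arf5 followed library complexity in opposite orders within the genotypes. In control mice its rank order was that of the number of genes above 0 (Spearman's rho 1, n = 4), from 0 FPKM in the library with 1479 such genes to 4.78 FPKM in that with 2742. In TNFdARE mice the order was exactly inverse (rho -1, n = 4), from 27.9 FPKM with 818 genes to 5.09 FPKM with 4917. These orders describe 4 libraries each and carry no test. When that number entered the model as a covariate, the Arf5 difference was 2.03. The model fitted a single slope to both genotypes, which opposite orders cancel, so nothing is read from this value about library complexity. Without TNFdARE mice 1 and 4, the TNFdARE libraries with the fewest genes, the Arf5 difference was 1.43.

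**Figure D2:**
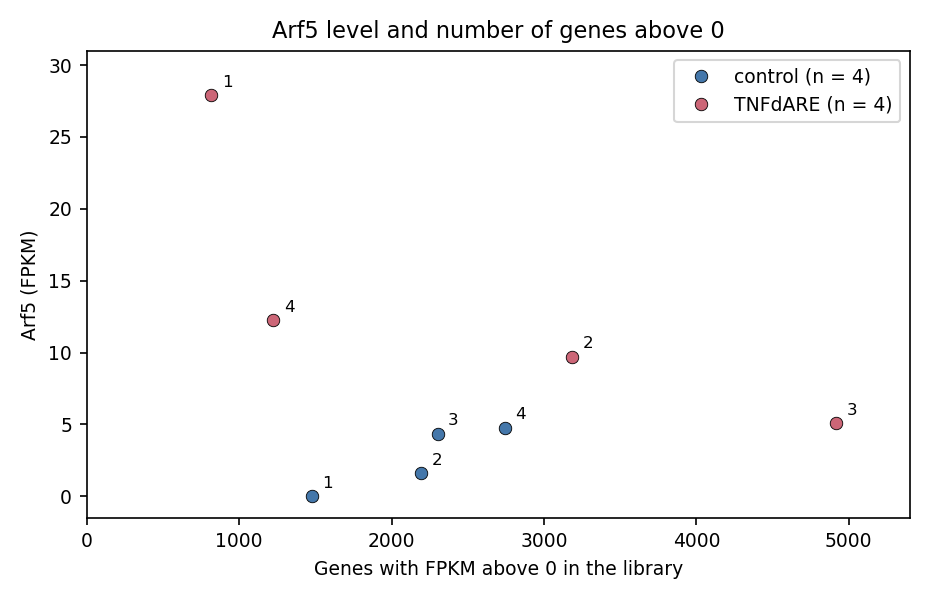
Arf5 in FPKM against the number of genes with FPKM above 0 in the same library, with a point for each mouse labelled by its number. Arf5 rises with the number of genes in the 4 control mice and falls with it in the 4 TNFdARE mice, where the library with 818 genes holds the highest value, 27.9 FPKM.

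The summed erythroid markers, globins among them, were highest in TNFdARE mice 1 and 4, the mice with the highest Arf5 values. Of 14 erythroid markers, 11 were above 0 in at least 1 mouse, Klf1 was at 0 in all 8, and Ahsp and Epb42 were not listed under those symbols. Summed in FPKM, they came to 755, 863, 2205 and 835 in control mice 1 to 4, against 6937, 1115, 2938 and 14672 in TNFdARE mice 1 to 4. The sums overlapped between genotypes, since control mouse 3 exceeded TNFdARE mouse 2. The rank order of Arf5 against the sum gave a Spearman's rho of 0.4 in the 4 control mice and 0.6 in the 4 TNFdARE mice, as a description. The part of these transcripts in the Arf5 values was not tested. Among leukocyte markers, 5 of 13 neutrophil markers, 3 of 8 monocyte and macrophage markers in the table, 2 of 7 B cell markers and 3 of 8 T cell markers were above 0 in any mouse, and a listed 0 does not show that a marker was absent. The neutrophil sum reached 3.66 FPKM in control mice and 10.3 FPKM in TNFdARE mice and was 0 in at least 1 mouse of each, with S100a8, Csf3r and Cxcr2 at 0 in all 8. The monocyte and macrophage sum was 30.8 to 50.8 FPKM and 12.0 to 36.1 FPKM, with Cd14, Ccr2 and Cx3cr1 at 0. However, 1 marker of that list was above 0 in all 8 mice. It made up the whole sum in control mice 1, 2 and 4 and in TNFdARE mouse 4. The B cell sum reached at most 2.09 FPKM and 0.366 FPKM, with Cd79a and Ms4a1 at 0, and the T cell sum at most 3.49 FPKM and 0.822 FPKM, with Cd3d, Cd3e and Cd4 at 0. Set against the platelet marker sum of the same library, Arf5 was 0, 0.123, 0.251 and 0.383% in control mice 1 to 4, against 2.38, 0.738, 0.396 and 0.933% in TNFdARE mice 1 to 4.

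Arf4, the other class II gene, was above 0 in 2 of 8 mice. It was listed at 0, 1.27, 1.36 and 0 FPKM in control mice 1 to 4 and at 0 in all 4 TNFdARE mice. Its mean over the 8 mice, 0.329 FPKM, was below the 1 FPKM needed for a test, and with a group at 0 the size of any fold change would be set by the pseudocount. When Arf4 and Arf5 were summed as class II, control mice lay between 0 and 5.71 FPKM and TNFdARE mice between 5.09 and 27.9 FPKM, and the groups overlapped through control mouse 3.

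The class I genes showed no difference that exceeded the spread between mice. Arf1, the main Golgi Arf that recruits the COPI coat and the clathrin adaptor AP-1, was listed at 7.78, 0.744, 1.77 and 4.95 FPKM in control mice 1 to 4 and at 5.13, 1.39, 2.32 and 1.62 FPKM in TNFdARE mice 1 to 4. It was the only member above 0 in all 8 mice, and the groups overlapped over most of their range. The log2 fold change of Arf1 was -0.25 with a standard error of 0.72 (limma, adjusted p = 0.95 over 1534 genes), and the two-sided exact permutation test gave p = 0.71. The sign of Arf1 turned to 0.13 without control mouse 1, where it was highest. Arf3, which is closest to Arf1 in sequence and acts at the trans-Golgi network and recycling endosomes, was listed at 2.85, 1.29, 1.42 and 0.843 FPKM in control mice 1 to 4 and at 1.03, 1.76, 2.03 and 0 FPKM in TNFdARE mice 1 to 4. The log2 fold change of Arf3 was -0.30 with a standard error of 0.68 (limma, adjusted p = 0.92, two-sided exact permutation p = 0.57), and it turned positive under quantile normalization (0.13), with sample weights (0.31), without TNFdARE mouse 4 (0.037) and without TNFdARE mice 1 and 4 (0.21). Arf2, the third class I gene, was listed at 0 in all 8 mice.

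Of all 1534 genes tested, 69 (4.50%) had an unadjusted p under 0.05, and 0 (0%) had an adjusted p under 0.05 by limma. Neither Arf1 nor Arf3 was among the 69. The median log2 fold change of the 1534 genes was -0.30, so both Arf1 and Arf3 lay close to the middle of all genes. Their standard errors are wide, and differences of the size of 1 log2 unit in either direction lie within 2 standard errors for both.

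Arf6, the plasma membrane Arf, was listed at 2.06, 0, 0.629 and 0.275 FPKM in control mice 1 to 4 and at 0.451, 0.350, 0.0473 and 0 FPKM in TNFdARE mice 1 to 4. The groups overlapped, and control mouse 1 held the highest value. Its mean of 0.476 FPKM was below the minimum for a test. The difference between group means of log2(FPKM + 1) was -0.41, it was -0.09 without control mouse 1, and it turned to 0.017 after quantile normalization.

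Ranked by mean FPKM, the order in control mice was Arf1 (3.81 ± 3.19, SD, n = 4), Arf5 (2.69 ± 2.27), Arf3 (1.60 ± 0.87), Arf6 (0.740 ± 0.915), Arf4 (0.658 ± 0.761) and Arf2 (0). Neighbours in that order differed by less than the larger of their SDs. In TNFdARE mice the order was Arf5 (13.7 ± 9.90, SD, n = 4), Arf1 (2.62 ± 1.72), Arf3 (1.20 ± 0.91), Arf6 (0.212 ± 0.222), and Arf4 and Arf2 at 0. There Arf3 stood above Arf6 by more than the larger SD of the pair, whereas Arf1 and Arf3, and Arf6 and Arf4, differed by less. Arf5 exceeded Arf1 within 4 of 4 TNFdARE mice and within 2 of 4 control mice. Arf5 was picked on these values, so its place and its comparison with Arf1 are descriptions.

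The make-up of the family follows from these values. Arf5 held 0, 32.8, 45.6 and 44.1% of the summed FPKM of Arf1 to Arf6 in control mice 1 to 4, against 80.8, 73.5, 53.6 and 88.4% in TNFdARE mice 1 to 4. These shares are not changed by a constant factor per library, and the groups did not overlap, but they contain the Arf5 values that picked the gene and so are a description. The family sum was 4.92 to 12.7 FPKM in control mice and 9.48 to 34.5 FPKM in TNFdARE mice, which overlapped. Without Arf5 the sum was 12.7, 3.30, 5.18 and 6.07 FPKM in control mice 1 to 4, against 6.61, 3.51, 4.39 and 1.62 FPKM in TNFdARE mice 1 to 4. These sums overlapped as well.

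**Figure D3:**
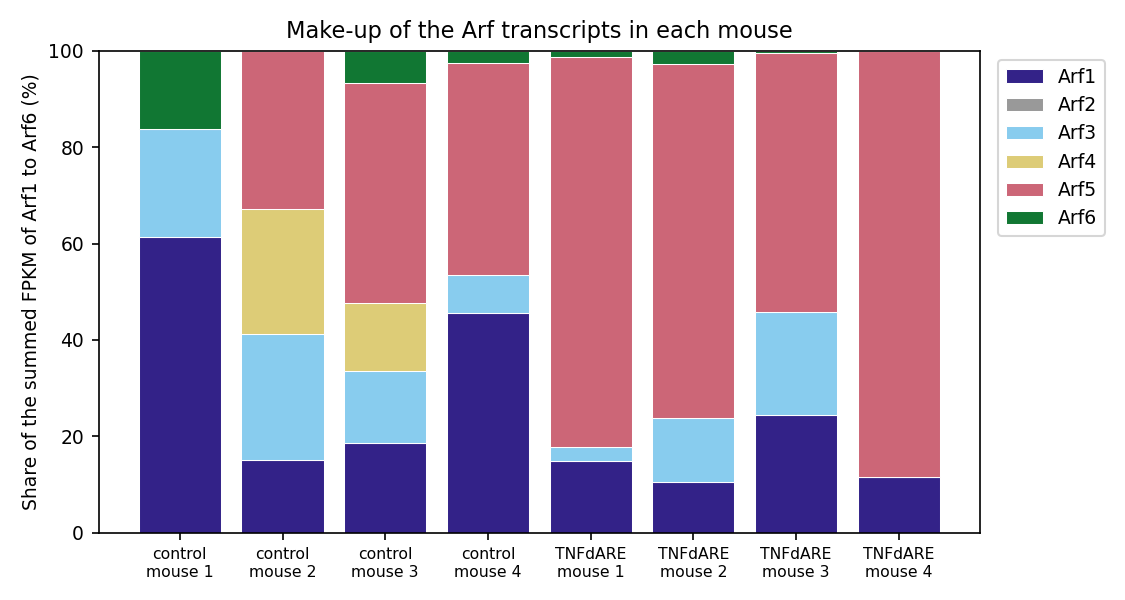
Share of each member in the summed FPKM of Arf1 to Arf6, in percent, with a bar for each mouse. Arf5 fills 53.6% to 88.4% of the bar in TNFdARE mice and 0% to 45.6% in control mice, where Arf1, Arf3, Arf4 and Arf6 take the rest.

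Sex was balanced between the groups, so each genotype could be compared within sex. In females, Arf5 was 0 and 4.78 FPKM in control mice 1 and 4 and 9.71 and 12.3 FPKM in TNFdARE mice 2 and 4. In males it was 1.61 and 4.35 FPKM in control mice 2 and 3 and 27.9 and 5.09 FPKM in TNFdARE mice 1 and 3. These values picked Arf5, so no interaction with sex was tested for it. Arf1 differed more in appearance, since both TNFdARE females lay below both control females (1.39 and 1.62 against 7.78 and 4.95 FPKM) and both TNFdARE males lay above both control males (5.13 and 2.32 against 0.744 and 1.77 FPKM). The genotype by sex interaction of Arf1 was 2.57 on the log2 scale (male minus female, standard error 1.49, unadjusted p = 0.11, adjusted p = 0.92 by limma), with 2 mice per cell of the design. Of all 1534 genes, 54 (3.52%) had an unadjusted interaction p under 0.05 and 0 an adjusted one by limma. Of the 2 members tested, Arf1 and Arf3, 0 had an unadjusted p under 0.05. When all genes above 0 were tested with no filter on low values, the limma interaction p of Arf1 was 0.048 unadjusted and its adjusted p = 0.66.

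Over the 21 other ways of processing, the Arf5 difference ranged from 1.04 with sample weights to 3.05 with a pseudocount of 0.1. Other filters, a fit without a trend, sex as a covariate and the replicate block left it at 2.07 by construction. Leaving out each mouse in turn gave 1.54 (without control mouse 1) to 2.42 (without TNFdARE mouse 3). Since the groups do not overlap as deposited, leaving out mice cannot turn the sign. The same values picked Arf5, so neither range is a sign of stability.

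**Figure D4:**
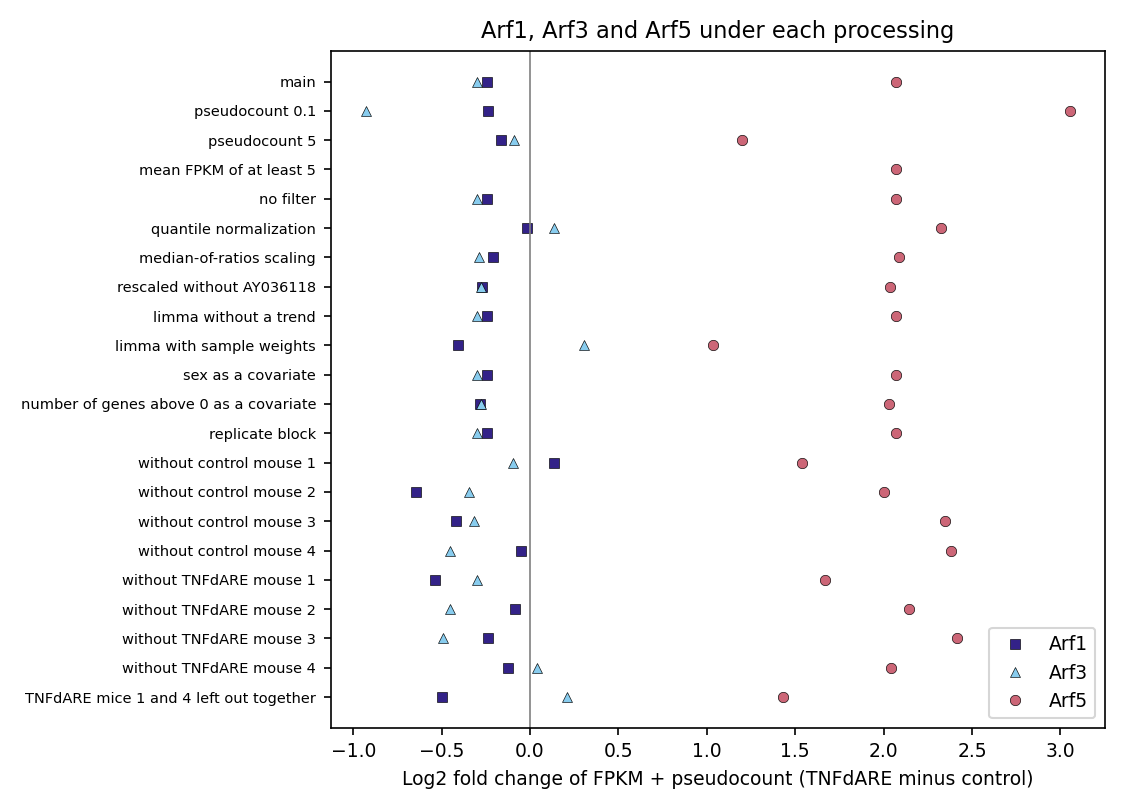
Log2 fold change (TNFdARE minus control) of Arf1, Arf3 and Arf5, a point each, under the processing named on the vertical axis. Arf5 lies between 1.04 and 3.05, and Arf1 and Arf3 lie between -0.93 and 0.31, on both sides of 0.

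The genes that load, unload and read Arf proteins were followed in lists of 102 genes, of which 64 were above 0 in at least 1 mouse and 11 had a mean of at least 1 FPKM. Of these 11, 1 had an unadjusted p under 0.05, and it was lower in TNFdARE platelets. That is 9.09% of the 11, against 4.50% of all genes tested, a difference made by a single gene, Pld2. Its result was known when the lists were written, so nothing is read from this share. The median log2 fold change of the 11 was -0.68, beside -0.30 for all genes, with 3 positive and 8 negative values beside 567 and 966 among all genes. This median moved with single mice. It was -0.10 without control mouse 1 and -0.34 without TNFdARE mouse 4, beside -0.26 and -0.23 for all genes. Leaving out any other mouse gave -0.70 (without control mouse 2) to -1.05 (without TNFdARE mouse 2), beside -0.27 and -0.41 for all genes.

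Among 15 GEFs, 11 were detected but only Gbf1, which loads Arf1, Arf4 and Arf5 at the early Golgi, had a mean of at least 1 FPKM over the 8 mice. It was listed at 9.08 and 11.7 FPKM in control mice 1 and 2 and at 0 in the other 6 mice, with a two-sided exact permutation p = 0.43. Its unadjusted limma p of 0.080 fell to 0.033 without control mouse 3 and 0.034 without control mouse 4, both of which were at 0. The next GEFs by mean level were Psd2, above 0 in TNFdARE mice 2 (3.79 FPKM) and 3 (0.106 FPKM), and Iqsec2, above 0 in control mouse 4 alone (3.73 FPKM). Arfgef2, Cyth2, Fbxo8 and Iqsec3 were at 0 in all 8 mice.

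Among 23 GAPs, 14 were detected and 3 tested, with no unadjusted p under 0.05. Asap1, a GAP tied to adhesion sites and the actin cytoskeleton, was listed at 5.00, 4.54, 24.8 and 7.08 FPKM in control mice 1 to 4 and at 5.98, 9.005, 6.56 and 0 FPKM in TNFdARE mice 1 to 4 (log2 fold change -0.93, standard error 0.83, adjusted p = 0.86 by limma). Smap1, a GAP of Arf6-dependent endocytosis, was at 0, 1.93, 1.60 and 3.60 FPKM and at 0, 2.04, 6.95 and 24.2 FPKM in the same order (1.03, standard error 0.95). Agap3 was above 0 in 4 mice, at 3.40 and 0.981 FPKM in control mice 1 and 2 and 0.334 and 3.61 FPKM in TNFdARE mice 3 and 4 (-0.13, standard error 0.78). The groups of all 3 genes overlapped. Leaving out 1 mouse moved each of them. Asap1 was -0.17 without TNFdARE mouse 4 and -0.43 without control mouse 3. Smap1 was 0.25 without TNFdARE mouse 4, 0.60 without control mouse 1 and 1.80 without TNFdARE mouse 1. Agap3 was lowest at -0.64 without TNFdARE mouse 4 and highest at 0.33 without control mouse 1.

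Effectors and coat subunits gave the largest numbers of detected and tested genes among the lists, with 30 of 41 detected and 7 tested. Ap3m1, the mu subunit of the AP-3 adaptor that platelets need for dense granules, was listed at 55.5, 40.9, 35.4 and 74.2 FPKM in control mice 1 to 4 and at 52.0, 43.99, 37.7 and 12.0 FPKM in TNFdARE mice 1 to 4. Ap3m1 had a log2 fold change of -0.61 with a standard error of 0.54 (limma, adjusted p = 0.86), and it was -0.16 without TNFdARE mouse 4. The groups overlapped in Ap3m1. Copg2, a gamma subunit of the COPI coat that Arf1 recruits to the Golgi, was at 46.8, 38.5, 63.4 and 41.3 FPKM in control mice and at 24.2, 35.4, 32.7 and 13.3 FPKM in TNFdARE mice. Every TNFdARE mouse lay below every control mouse in Copg2, with the nearest values at 35.4 and 38.5 FPKM, a pattern shared by 38 of the 1534 genes tested (2.48%). The log2 fold change of Copg2 was -0.88 (standard error 0.48, unadjusted p = 0.090 and adjusted p = 0.86 by limma), and its exact permutation p of 0.029 is the smallest that 4 mice against 4 allow. Copg2 passed an unadjusted p of 0.05 without TNFdARE mouse 2 (log2 fold change -1.05, limma unadjusted p = 0.049, adjusted p = 0.77), and it was -0.48 with sample weights and -0.44 without TNFdARE mice 1 and 4.

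Pld2, a phospholipase D that Arf proteins can activate to make phosphatidic acid, was the gene of the lists with an unadjusted p under 0.05. It was listed at 19.6, 6.54, 9.50 and 5.79 FPKM in control mice 1 to 4 and at 0, 2.81, 2.08 and 0 FPKM in TNFdARE mice 1 to 4, with a log2 fold change of -2.47 (standard error 0.72, unadjusted p = 0.0044 and adjusted p = 0.86 by limma). The TNFdARE mice at 0 were those with the fewest genes above 0, and with the number of genes above 0 in the model the log2 fold change of Pld2 was -2.42 (standard error 0.66, limma unadjusted p = 0.0036, adjusted p = 0.59). Without both of those mice it was -1.58 (limma unadjusted p = 0.032, adjusted p = 1). The covariate model fitted a single slope to both genotypes. Pld2 was highest in the control mouse with the fewest genes above 0, yet at 0 in the TNFdARE mice with the fewest. Nothing is thus read from the value of -2.42 about library complexity. The Pld2 result was known when the list was written.

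The other tested effectors were uneven between mice. Ap1m1, the mu subunit of AP-1, was above 0 in control mouse 1 alone, at 22.2 FPKM. Ap1s2, an AP-1 sigma subunit, reached 10.2 FPKM in control mice and 4.39 FPKM in TNFdARE mice and was at 0 in 1 and 2 of them. Arfip1, an arfaptin that binds Golgi Arf and Arl proteins, was highest in TNFdARE mouse 1 at 8.86 FPKM and at most 0.895 FPKM elsewhere. Pip5k1c, a kinase that makes phosphatidylinositol 4,5-bisphosphate, was at 3.89 FPKM in control mouse 4 and 4.47 FPKM in TNFdARE mouse 1, and at or below 0.749 FPKM in the other 6. None of these had an unadjusted p under 0.05.

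Of 23 Arf-like, Sar and other related GTPases, 9 were detected and 0 reached a mean of 1 FPKM. The highest by mean over the 8 mice were Sar1b, the GTPase that starts the COPII coat, at 2.57 and 1.51 FPKM in control mice 2 and 4 and 0 elsewhere, Arl3 at 2.02 FPKM in control mouse 4 alone, and Arl5a, above 0 in 5 mice at up to 0.626 FPKM. Arl1, the Golgi Arl that recruits golgins, was listed at 0 in all 8 mice.

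**Figure D5:**
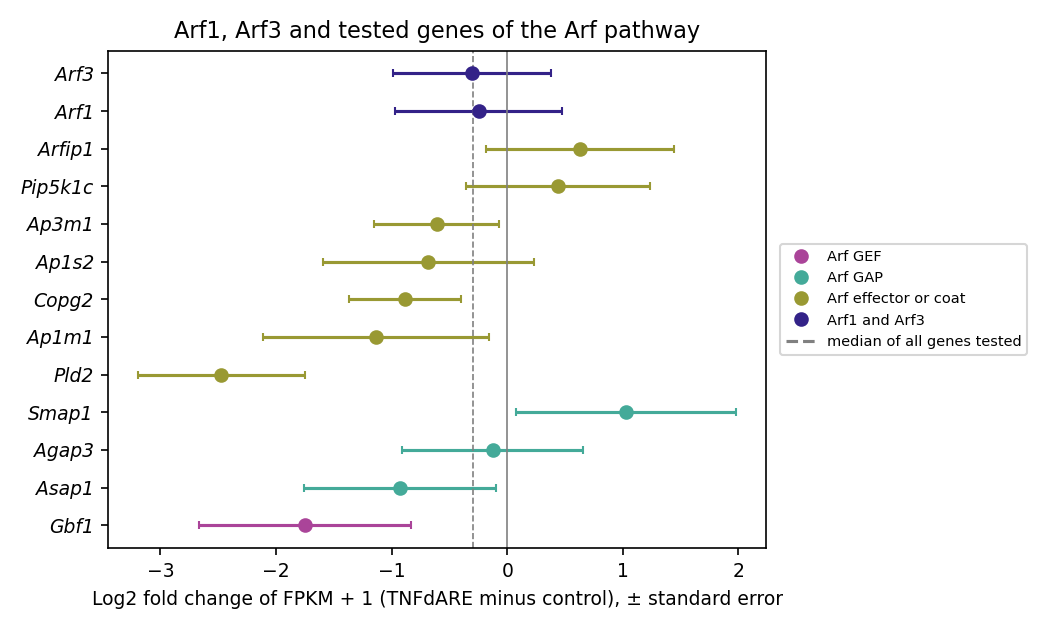
Log2 fold change of FPKM + 1 (TNFdARE minus control) with its standard error for Arf1, Arf3 and the 11 tested genes of the Arf pathway, coloured by role, with a dashed line at the median of all genes tested (-0.30). Pld2 lies farthest from 0, at -2.47, and 8 of the 11 pathway genes lie below 0, as do 966 of all 1534 genes tested.

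Between mice, Arf5 showed little relation to Arf1 and tended to run inversely to Arf3, as a description. With each genotype's mean taken off, Pearson's r of log2(FPKM + 1) over the 8 mice was -0.06 between Arf5 and Arf1, -0.58 between Arf5 and Arf3 and 0.25 between Arf1 and Arf3. The tested genes most like Arf5 by this measure were Tmem123, a cell surface glycoprotein (r = 0.96), Dph5, an enzyme of diphthamide synthesis (r = 0.93), and the predicted gene Gm10073 (r = 0.91). For Arf1 they were Cd72 (0.94), Gm8730 (0.90) and Dstn, the actin-depolymerizing protein destrin (0.90). For Arf3 they were Ctnna1, alpha-catenin (0.96), Gm14455 (0.93) and Slamf1 (0.92). These are the top values among 1534 genes over the same 8 libraries, which differ in complexity, and they are descriptions with no test.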

How the data were processed

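Platelet RNA of 4 TNFdARE and 4 littermate control mice was analysed. A single value for each gene in each mouse was deposited, read here as FPKM. The unit was inferred, because the submitters' processing notes name Cufflinks and the mm10 build and the columns sum to between 46047 and 99470. Versions, annotation, strandedness and the treatment of multi-mapping reads are not given in the sources used here. Each column was matched to its mouse by library name, and 0 value columns were left unmapped. In each library 0% to 18.0% of low values lay near whole multiples of a candidate fragment value, highest in TNFdARE mouse 3, where 10% would with no step. Whole reads could thus not be recovered for nearly all genes, depth is unknown, and no count model was used.

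Genes with a mean of at least 1 FPKM were compared on log2(FPKM + 1), a scale that understates changes of low genes, with limma 3.58.1 in R 4.3.3 (empirical Bayes with a trend, Benjamini-Hochberg adjustment over 1534 genes) and, for single genes, with two-sided exact permutation tests. The limma fit was tested on simulated data. Positions and sequences came from GENCODE M21 (GRCm38), which holds 42470 of the 43548 identifiers, and similar transcripts were sought for the 6 members alone with BLAST 2.17.0. Members and lists were chosen with earlier results of these data known. Named genes were the members, the genes overlapping them, pathway genes with an unadjusted p under 0.05, the 3 highest of each list, and the 3 genes most like each tested member. Other pathway genes (Ap1s2, Ap1m1, Arfip1 and Pip5k1c beside them, and genes at 0) were named to account for all those tested, after their values were seen. Alternatives were other pseudocounts, filters, normalizations, covariates, sample weights, a replicate block and leaving out mice.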

Additional observations from a re-analysis of the deposited data

Results flagged for a closer look

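For Arf members, their sums, the Arf5 share, the number of genes above 0 and the tested pathway genes, 37 groups of 4 mice were examined for a mouse far from the others, measured as its gap to the nearest mouse over the group's whole range. A mouse stood apart in 6 groups, and none of these concerned Arf1 to Arf6. A rate of 1 in 20 would give about 1.85. Listed zeros can force a gap of 1, as in Ap1m1 and Pip5k1c below, so the 6 are not compared with chance. Control mouse 3 was highest in Asap1, a GAP, by 0.874 of the range (24.8 FPKM). TNFdARE mouse 4 was highest in Agap3 by 0.907 of the range (3.61 FPKM). Control mouse 1 was the only control mouse with Ap1m1 above 0, a gap of 1 (22.2 FPKM). TNFdARE mouse 1 was highest in Arfip1 by 0.929 of the range (8.86 FPKM). In Pip5k1c, control mouse 4 was the only control mouse above 0, a gap of 1 (3.89 FPKM), and TNFdARE mouse 1 was highest among TNFdARE mice by 0.881 of the range (4.47 FPKM).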

How the results depend on the processing

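The 69 genes with an unadjusted p under 0.05 became 36 when a mean of 5 FPKM was required, with 583 genes tested, and 111 with limma's sample weights, and leaving out each mouse in turn gave 46 to 75. Under each alternative, 0 genes had an adjusted p under 0.05 by limma. The split of 27 higher and 42 lower genes became 31 and 29 after quantile normalization, 74 and 37 with sample weights, 35 and 27 with TNFdARE mouse 1 left out, 26 and 20 with TNFdARE mouse 4 left out, 8 and 41 without control mouse 1, and 51 and 13 without TNFdARE mice 1 and 4, a setting chosen after seeing the data. The median of all genes moved from -0.30 to -0.12 after quantile normalization, to -0.01 with sample weights, to -0.14 with TNFdARE mouse 1 left out and to 0.011 without TNFdARE mice 1 and 4.

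Arf1 (-0.25) ranged from -0.64 to 0.13 with 1 mouse left out and was positive without control mouse 1. Arf3 (-0.30) ranged from -0.50 to 0.037 (without TNFdARE mouse 4), and was 0.13 after quantile normalization, 0.31 with sample weights and 0.21 without TNFdARE mice 1 and 4. With a pseudocount of 0.1, the differences of the untested Arf4 and Arf6 were -1.91 and -1.003, against -0.61 and -0.41. Arf4 was at 0 in all 4 TNFdARE mice, so the pseudocount sets the size of its difference. The pathway genes past the threshold, 1 in the main comparison, ranged from 1 to 2 with 1 mouse left out. The members past it for genotype by sex, 0 of 2, were 1 of 4 with no filter, and neither had a mean of 5 FPKM. The causes were not tested.

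The labels give both genotypes mouse numbers 1 to 4, but same-numbered mice did not deviate together (correlations 0.060, -0.062, 0.024 and -0.067). Library names share 25 between control mouse 1 and TNFdARE mouse 1 and 18 between control mouse 4 and TNFdARE mouse 3, with no meaning given (correlations 0.060 and 0.042). With a replicate block on the mouse number, 64 genes passed, 1 of them in the pathway lists. Each number holds a mouse of each genotype, so the block cannot move the group differences. Those of Arf1, Arf3 and Arf5 were thus again -0.25, -0.30 and 2.07. Without known depth, values near 0 have no error of their own.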
